A study of Homo sapiens
Rattus norvegicus and Homo sapiens with 10 samples.

Results

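The nuclear genes for subunits of the mitochondrial respiratory chain and ATP synthase were described in tumours grown from U251N, a human glioblastoma line in long use. They were taken by name. The rule kept the NDUFA, NDUFB, NDUFC, NDUFS and NDUFV genes, SDHA to SDHD, the UQCR genes and CYC1. It also kept the COX4 to COX8 genes and the ATP synthase genes whose names begin with ATP5F1, ATP5M, ATP5P or ATP5IF1. Pseudogene names ending in P and a digit and antisense names were left out. The rule uses names and no measured value. The rule found 90 of the 62754 genes in the table, of which 36 belong to complex I, 4 to complex II, 10 to complex III, 18 to complex IV and 19 to complex V. NDUFA4 carries a complex I name and was counted with complex IV, where the protein is now placed. The last 3 entries were a readthrough transcript (ATP5MF-PTCD1), a noncoding divergent transcript (UQCRFS1-DT) and an unnumbered pseudogene (COX8BP). They were kept in the count because the rule matched them.

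The respiratory chain sits in the inner mitochondrial membrane. Complex I (NADH dehydrogenase) and complex II (succinate dehydrogenase) pass electrons to ubiquinone, complex III passes them to cytochrome c, and complex IV reduces oxygen. Complexes I, III and IV pump protons, and ATP synthase, also called complex V, uses the gradient to make ATP. Complexes I, III, IV and V each join nuclear-encoded subunits to a few encoded by mitochondrial DNA, whereas complex II is wholly nuclear. Glioblastoma cells are known for high glycolysis, yet most lines keep a working respiratory chain.

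All animals were adult female athymic RNU/RNU rats, which lack T cells and so accept human cells, and U251N cells had been implanted in the brain of the tumour-bearing rats. The 3 primary tumours received no ablation. The 3 recurrent tumours had regrown after LITT (laser interstitial thermal therapy), a treatment that destroys tissue by heat from a laser probe, here guided by diffusion-weighted magnetic resonance imaging. The 3 controls were labelled as tumour-free brain: 1 was a failed graft (control replicate 1) and the others (control replicates 2 and 3) were procedural. The remaining library came from the cell line in culture and had no replicate. Tumours of both arms came from 1 cell line in an immune-deficient host, and the labels do not state that each library came from a separate animal. If some shared one, the p-values measure in part technical spread.

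Each tumour library summed to between 20321590 and 39714714 estimated counts, each control to between 1358753 and 4158124, and the culture to 65058642. Graft reads, as the labels give them, made up 42.52% to 64.4% of reads in primary and 29.44% to 42.67% in recurrent tumours. The line's markers were present. The summed level of 8 astroglial and glioma genes such as VIM, NES and CD44 was 8147 to 9470 counts per 1e6 of the library total (CPM) in primary tumours, 7793 to 7968 in recurrent tumours and 9769 in the culture. Markers of other cell types were read from the same human counts. Blood genes (HBA1, HBA2, HBB and ALAS2) stood at 0 in every library. Of 6 microglia and macrophage genes, PTPRC, CX3CR1, P2RY12 and AIF1 stood at 0 in all 6 tumours and CD68 and CSF1R were present, with a list sum of 22.6 to 28.4 CPM in the tumours and 22.8 CPM in the culture. The neuron list summed to 769 to 1433 CPM in the tumours and 535 CPM in the culture, most of it NEFL in both, and the oligodendrocyte list to 124 to 201 CPM and 135 CPM. The endothelial list summed to 7.07 to 17 CPM in the tumours and 6.53 CPM in the culture. Control replicate 3 went against its tumour-free label, with 4.9% graft reads and 6412 CPM of the glioma genes. The other controls had 0.33% and 0.55% graft reads, and the glioma genes were not absent there. Their sum was 99.4 CPM in control replicate 1. Control replicate 2 had 316 counts of VIM, 234 of CD44 and 204 of NES. Results on controls are therefore given with and without control replicate 3, and none of the controls was free of the line's markers.

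Several subunits exist as paralogs, and reads from near-identical copies are divided between them by the counting model. The coding sequences of the 3 paralog sets below are shown because they bear on how far each copy could be told from its partner. Reads can also come from the untranslated parts, which were not compared. For UQCRH and UQCRHL the transcript lengths were 604 and 2180 bases. Coordinates are 1-based on GRCh38 with GENCODE 29 gene models, and sequences run 5′ to 3′ on the coding strand. UQCRH, the hinge protein of complex III that joins cytochrome c1 to cytochrome c, is coded at chr1:46303767-46316584 on the plus strand in 4 exons. Its copy UQCRHL is coded at chr1:15807374-15807649 on the minus strand in 1 exon, with no intron. Capitals mark the bases that differ, which were 4 of 276, so the pair was 98.6% identical.
UQCRH: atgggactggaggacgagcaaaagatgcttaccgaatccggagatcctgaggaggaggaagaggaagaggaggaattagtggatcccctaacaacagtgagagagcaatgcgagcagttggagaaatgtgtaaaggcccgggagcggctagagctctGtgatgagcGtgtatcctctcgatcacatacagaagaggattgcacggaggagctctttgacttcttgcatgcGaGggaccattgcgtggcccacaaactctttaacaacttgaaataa
UQCRHL: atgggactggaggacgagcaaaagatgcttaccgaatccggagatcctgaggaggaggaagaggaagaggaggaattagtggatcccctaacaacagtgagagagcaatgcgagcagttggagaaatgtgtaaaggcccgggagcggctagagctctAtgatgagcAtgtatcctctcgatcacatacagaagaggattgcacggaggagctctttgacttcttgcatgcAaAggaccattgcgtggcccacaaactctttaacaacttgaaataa
COX7B, a small subunit of complex IV, is coded at chrX:77899554-77905261 on the plus strand. Its testis paralog COX7B2 is coded at chr4:46734947-46735192 on the minus strand. The pair was 78.0% identical over 246 aligned bases, with 51 substitutions. Capitals mark the bases that differ or have no partner.
COX7B: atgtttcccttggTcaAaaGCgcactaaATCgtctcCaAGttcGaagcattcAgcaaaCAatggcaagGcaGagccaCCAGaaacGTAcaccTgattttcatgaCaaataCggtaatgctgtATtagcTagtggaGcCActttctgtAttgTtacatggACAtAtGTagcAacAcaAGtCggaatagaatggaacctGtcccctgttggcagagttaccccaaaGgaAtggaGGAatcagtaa
COX7B2: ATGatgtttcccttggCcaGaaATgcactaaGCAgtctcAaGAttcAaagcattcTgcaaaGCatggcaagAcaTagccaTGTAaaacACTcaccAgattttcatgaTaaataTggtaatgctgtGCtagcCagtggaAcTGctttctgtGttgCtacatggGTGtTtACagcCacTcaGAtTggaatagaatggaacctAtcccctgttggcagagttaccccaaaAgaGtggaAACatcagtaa
ATP5MC1, ATP5MC2 and ATP5MC3 encode the c subunit of the ATP synthase rotor ring. They are coded at chr17:48893418-48895769 on the plus strand, chr12:53665314-53672614 on the minus strand and chr2:175178288-175181393 on the minus strand. The last 77 codons before the stop encode the same residues in all 3 genes, while the parts upstream, which include the cleaved import signals, were 45.3% to 55.2% identical in bases. The shared stretch is shown with its stop codon. Capitals mark bases where a gene differs from at least 1 of the others.
ATP5MC1: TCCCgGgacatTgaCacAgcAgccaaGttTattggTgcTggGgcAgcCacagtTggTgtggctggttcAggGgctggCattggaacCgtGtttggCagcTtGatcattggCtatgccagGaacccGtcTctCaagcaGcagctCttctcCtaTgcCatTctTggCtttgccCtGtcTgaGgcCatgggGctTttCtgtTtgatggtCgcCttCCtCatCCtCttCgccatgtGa
ATP5MC2: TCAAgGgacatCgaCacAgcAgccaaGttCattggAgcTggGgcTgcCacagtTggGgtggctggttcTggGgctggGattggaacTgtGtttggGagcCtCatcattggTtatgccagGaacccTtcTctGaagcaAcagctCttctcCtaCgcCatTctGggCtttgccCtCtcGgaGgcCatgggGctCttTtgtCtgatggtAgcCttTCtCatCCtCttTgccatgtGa
ATP5MC3: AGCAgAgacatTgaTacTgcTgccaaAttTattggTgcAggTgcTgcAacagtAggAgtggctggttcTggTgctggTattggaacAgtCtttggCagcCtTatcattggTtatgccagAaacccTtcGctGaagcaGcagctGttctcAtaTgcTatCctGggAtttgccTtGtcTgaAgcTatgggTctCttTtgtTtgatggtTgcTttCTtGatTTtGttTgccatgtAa
Over this stretch ATP5MC1 and ATP5MC2 shared 207 of 234 bases, and ATP5MC3 shared 187 with each of them. The differences lie throughout the stretch, unlike the 4 of the UQCRH pair.

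Subunit transcripts made up a narrow share of the human counts. In tumours other than primary replicate 2 the 90 genes took 0.500% to 0.557% of the total, and in primary replicate 2 they took 0.730% (Wilson 95% interval 0.726% to 0.733%). In the culture the share was 0.578% (0.576% to 0.580%). Such intervals and the limits below reflect counting error alone, since the labels describe no molecular identifiers that would separate molecules from copies. The split between complexes varied less than the total. Complex I held 33.4% to 35.4% of the subunit counts of a tumour, complex V 27.0% to 28.4%, complex IV 20.1% to 23.0%, complex III 11.9% to 13% and complex II 3.47% to 4.45%. The culture had nearly the same split, with 32.6%, 26.7%, 23.0%, 12.8% and 4.72% in that order.

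**Figure D1:**
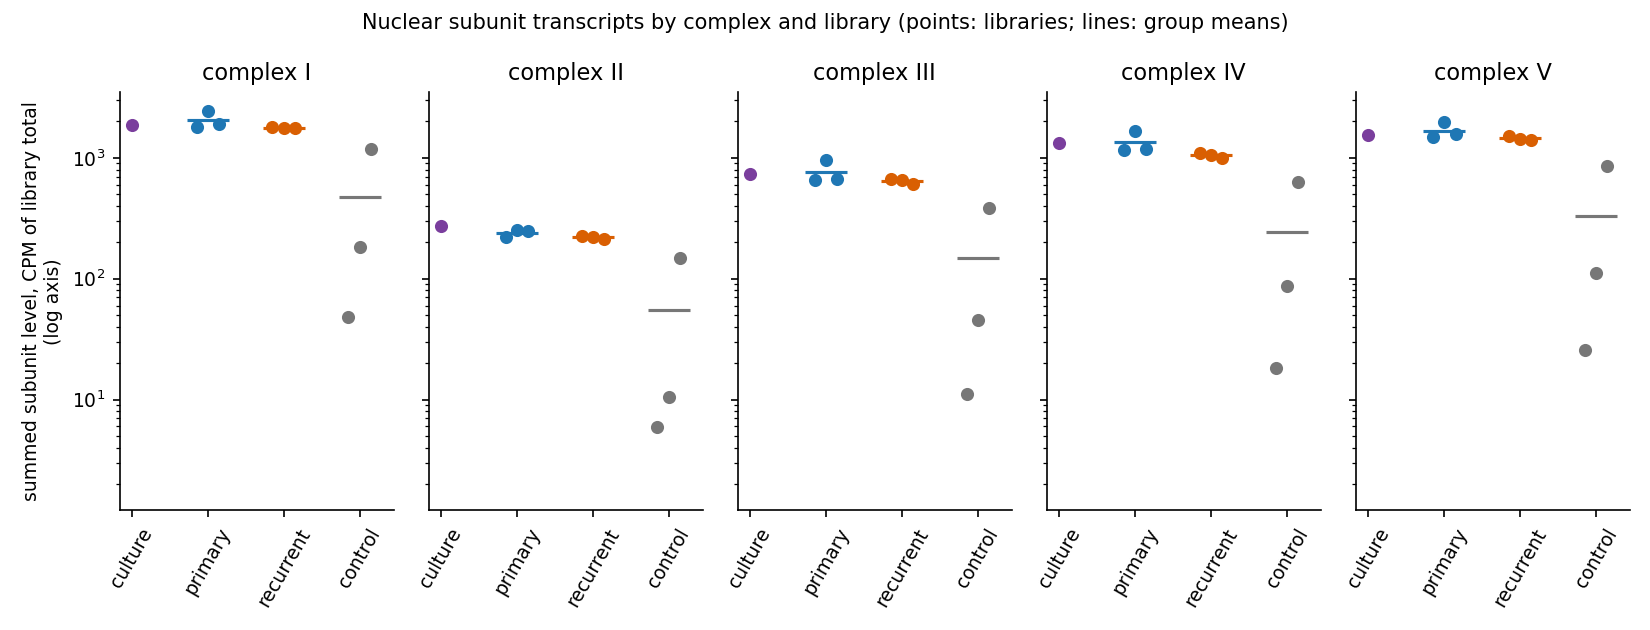
Summed level of the nuclear subunits of each complex, in CPM of the library total on a log axis, for the culture (1 library), primary tumours, recurrent tumours and controls (3 libraries each). Points are libraries and lines are group means. Structural small RNA made up 26.5% to 82.4% of the control totals and 5.37% to 13.2% of the tumour totals. Primary replicate 2 lies above the other tumours in each panel, and the controls spread from 11 to 388 CPM for complex III.

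Of the 90 genes, 81 passed the filter on low counts in the comparison of recurrent with primary tumours. Passing needed counts in a group of at least 3 tumours, so the 81 are the subunits these cells express and not all subunits. The 9 that did not pass were 6 tissue isoforms of complex IV, ATP5MGL, UQCRFS1-DT and COX8BP. The complex IV isoforms COX4I2 (lung), COX6A2 and COX7A1 (heart and muscle), COX7B2 and COX8C (testis) had 0 counts in all 10 libraries. With 0 counts seen, a true level of up to 3 counts remains possible, or 0.0755 to 0.148 CPM for a tumour library and 0.0461 CPM for the culture. COX6B2, the testis form of COX6B, had 17 counts in the culture (0.261 CPM), 3 in primary replicate 3 and 0 in the other tumours. The general partners of these isoforms were all present. COX4I1, COX6A1, COX6B1, COX7A2, COX7B and COX8A ranged from 15.9 CPM for COX8A to 420.5 CPM for COX4I1 over the 6 tumours (here and for recurrent against primary tumours below, CPM refers to the total scaled by the trimmed mean of M-values, TMM).

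Recurrent tumours were compared with primary tumours, the contrast the series was designed for. None of the 81 subunits passed edgeR's quasi-likelihood test at an adjusted p under 0.05, against 0.00628% of all 15928 genes tested. DESeq2 called none either, against 0.735% of all genes. At an unadjusted p under 0.05, 10 subunits were lower in recurrent tumours (edgeR, with 4.2% of all genes lower at that level) and 0 were higher (5.08% of all genes). DESeq2 gave 11 lower (4.36% of all genes). The direction was shared by most subunits. Of the 81, 73 had a log2 fold change below 0, against 50.9% of all genes, and their median was -0.24 against -0.0065 for all genes. In 16 subunits all 3 recurrent tumours lay below all 3 primary tumours (7.42% of all genes did so), and in 1, UQCRHL, all 3 lay above (7.94% of all genes). In bulk tissue, fewer cells of a type and less RNA per cell cannot be told apart.

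One library carried much of this difference. The summed level of the subunits was 5198, 7794 and 5433 CPM in primary replicates 1, 2 and 3 and 5436, 4943 and 4991 CPM in recurrent replicates 1, 2 and 3. Primary replicate 2 stood above the rest and the groups overlapped, since recurrent replicate 1 exceeded primary replicate 1. The group means were 6142 ± 1436 and 5123 ± 272 CPM (SD, n = 3 each), a ratio of 0.834, which was 0.964 without primary replicate 2. Primary replicate 2 was the highest tumour for 73 of the 81 subunits, against 27.5% of all genes tested. Among the exceptions were NDUFS1, NDUFS6, SDHA, UQCRHL, ATP5F1D, ATP5MC1 and the readthrough ATP5MF-PTCD1. Relative to the mean of the other 5 tumours, its level had a median ratio of 1.5 over the subunits, from 0.880 for SDHA to 1.92 for CYC1.

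Without primary replicate 2, the median log2 fold change of the 81 subunits was -0.06, 49 of them were below 0 (50.3% of all genes), and 2 reached an unadjusted p under 0.05 in the lower direction (3.41% of all genes). That number also fell to 2 without recurrent replicate 2 and to 3 without recurrent replicate 3, where the medians were -0.239 and -0.257. The RNA integrity number of primary replicate 2, 7.8, was below those of the other tumours, 8.1 to 8.9. It had the highest share of structural small RNA, 13.2% against 5.37% to 11.2%. Its deviation from the 6-tumour mean fell with transcript length over 13081 coding genes (Spearman's rho -0.51, across genes of 1 library, which are not independent), and the subunits are short. Their median transcript length was 750 bases, against 2618 for the coding genes tested. Coding genes of at most 1000 bases, of which 1079 were tested, had a median log2 fold change of -0.20, and longer ones 0.01. Among the subunits, the 54 of at most 1000 bases had a median of -0.24 and the 27 longer ones -0.27. With the length trend of each library removed, the median of all subunits was -0.08, and 54 of 81 were below 0 (48.7% of all genes). The part of RNA quality in these values was not tested.

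**Figure D2:**
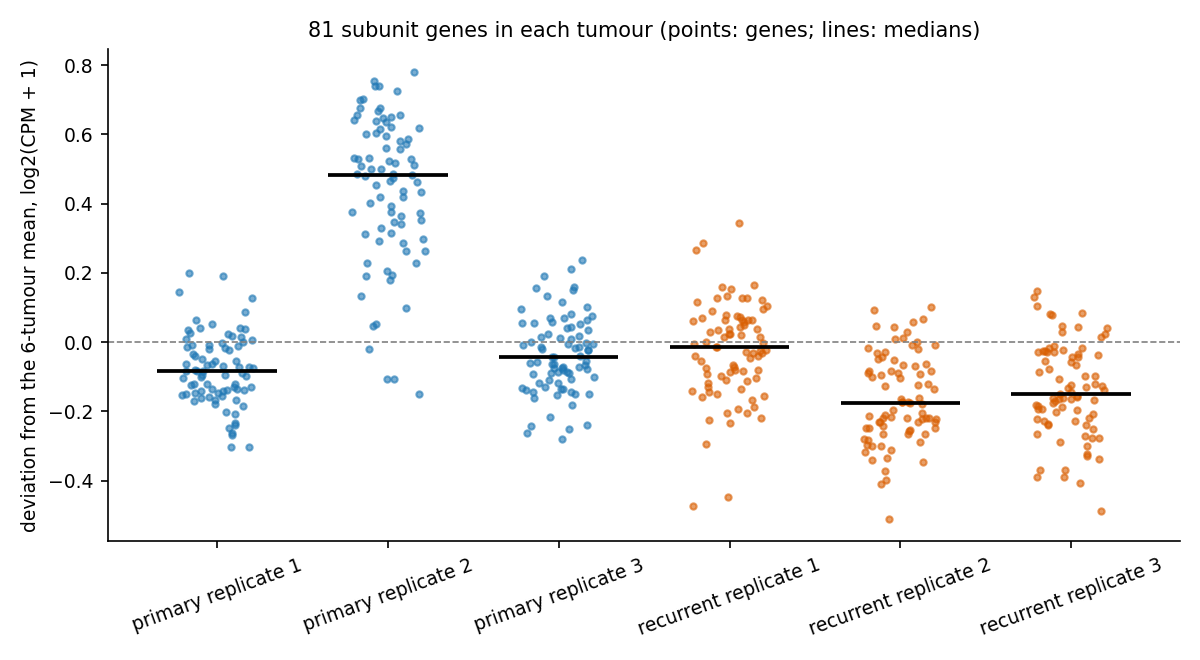
Deviation of each of the 81 tested subunit genes from its mean over the 6 tumours, in log2(CPM + 1), by library. Points are genes, lines are medians, and the medians were 0.48 in primary replicate 2 and between -0.18 and -0.01 in the other 5 tumours.

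Complex I is the largest complex of the chain, and its nuclear subunits divide into the catalytic core, the accessory subunits of the matrix arm and those of the membrane arm. Of its 36 subunits found by the rule, 33 had a log2 fold change below 0 (50.9% of all genes). An unadjusted p under 0.05 was reached by 5, all lower (4.2% of all genes). The median was -0.26, and -0.03 without primary replicate 2. The 7 core subunits, which carry the flavin and the iron-sulphur clusters, had a median of -0.14. The 9 matrix arm accessory subunits had a median of -0.27 and the 20 of the membrane arm -0.28. Without primary replicate 2 these medians were 0.0065 for the core, -0.07 for the matrix arm and -0.05 for the membrane arm. All 20 membrane arm subunits were below 0 (50.9% of all genes), from -0.47 for NDUFB2 to -0.14 for NDUFB10, although 8 of them were above 0 without primary replicate 2.

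The core subunits differed among themselves. NDUFS3, a core subunit of the quinone-binding module, measured 51.0, 71.2 and 52.3 CPM in primary and 45.9, 43.2 and 39.5 CPM in recurrent tumours. The groups did not overlap, and its log2 fold change was -0.44 (SE 0.16, edgeR adjusted p = 0.483), or -0.27 without primary replicate 2. NDUFS7, which holds the last iron-sulphur cluster before ubiquinone, measured 26.5, 28.6 and 25.1 CPM in primary and 23.8, 19.1 and 17.4 CPM in recurrent tumours. Here too the groups did not overlap, and primary replicate 2 stood less apart. The log2 fold change was -0.41 (SE 0.17, edgeR adjusted p = 0.520) and -0.36 without that library, the largest size left among the 81 subunits in the lower direction.

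NDUFS1, the largest core subunit and the carrier of several iron-sulphur clusters, measured 96.4, 105.6 and 106.1 CPM in primary and 100.3, 107.1 and 98.3 CPM in recurrent tumours. Its 6 tumours lay within a narrow band, with group means of 103 ± 5.51 and 102 ± 4.61 CPM (SD, n = 3 each). NDUFV1, which binds the flavin and NADH, averaged 50.1 CPM in both groups (SD 6.27 and 2.06, n = 3 each). NDUFV2, its partner with an iron-sulphur cluster, averaged 80.1 ± 17.5 and 72.8 ± 3.79 CPM, and NDUFS8, with clusters near the quinone site, 50.5 ± 10.6 and 43.6 ± 6.86 CPM (SD, n = 3 each). Both had overlapping groups.

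Among the accessory subunits, NDUFB2 of the membrane arm had the lowest log2 fold change. It measured 42.1, 67.5 and 48.5 CPM in primary and 41.7, 30.7 and 41.8 CPM in recurrent tumours. The highest recurrent tumour lay just under the lowest primary tumour, and the change was -0.47 (SE 0.20, edgeR adjusted p = 0.526), or -0.26 without primary replicate 2. NDUFS4 and NDUFA6, a pair of matrix arm subunits, also reached an unadjusted p under 0.05, at -0.44 each, but not without primary replicate 2, where they were at -0.24 and -0.17. Per kilobase of transcript, NDUFS5 was the most abundant subunit of the complex in tumours at 428 ± 109 CPM per kilobase (SD, n = 6). The lowest was NDUFA9 at 3.65 ± 0.716, whose annotated transcripts are long (median 4503 bases), so its level per length depends on the isoforms present. In fold terms, the range per length within the complex was far wider than the difference of any subunit between tumours.

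Complex II links the citric acid cycle to the chain, with SDHA and SDHB as the catalytic pair and SDHC and SDHD as membrane anchors. Its median log2 fold change was -0.11, and none of the 4 genes reached an unadjusted p under 0.05 (4.2% of all genes lower, 5.08% higher). SDHA, which holds the flavin and oxidises succinate, measured 76.3, 71.0 and 91.4 CPM in primary and 79.7, 78.5 and 77.7 CPM in recurrent tumours. All recurrent values lay within the primary range, and SDHA was the subunit for which primary replicate 2 was furthest below the other tumours. SDHB, which holds the iron-sulphur clusters, measured 95.6, 145.2 and 107.1 CPM in primary and 103.6, 88.6 and 93.3 CPM in recurrent tumours. Primary replicate 2 was high, the groups overlapped, and the change was -0.28 (SE 0.17, edgeR adjusted p = 0.609), or -0.09 without that library. SDHC averaged 23.5 ± 1.96 and 24.3 ± 0.904 CPM, and SDHD 24.0 ± 4.42 and 20.9 ± 1.12 CPM (SD, n = 3 each). Per kilobase, SDHB was the highest of the 4 at 91.6 ± 17.8 CPM (SD, n = 6) and SDHD the lowest at 26.1 ± 3.87.

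Complex III had a median log2 fold change of -0.19 over 10 genes, 9 of them below 0 (50.9% of all genes), and 0.02 without primary replicate 2. CYC1, cytochrome c1, measured 48.3, 89.0 and 51.0 CPM in primary and 53.9, 42.6 and 36.4 CPM in recurrent tumours. The groups overlapped, and primary replicate 2 stood at 1.92 times the mean of the other tumours, the highest such ratio of any subunit. Its change of -0.50 (SE 0.24, edgeR adjusted p = 0.555), the lowest of the complex, was -0.17 without that library. UQCRFS1, the Rieske iron-sulphur protein that is the other catalytic nuclear subunit, averaged 41.0 ± 6.13 and 38.8 ± 2.87 CPM (SD, n = 3 each). The core proteins UQCRC1 and UQCRC2, which face the matrix, averaged 151 ± 46.6 and 135 ± 11.7 CPM, and 88.9 ± 19.8 and 72.4 ± 3.24 CPM (SD, n = 3 each). Neither pair of groups was separate.

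Of the small subunits, UQCR11 had the smallest p, with 34.6, 46.4 and 34.2 CPM in primary and 31.6, 27.8 and 29.8 CPM in recurrent tumours. The groups did not overlap, and the change was -0.37 (SE 0.16, edgeR adjusted p = 0.534), or -0.21 without primary replicate 2. UQCRQ, a small ubiquinone-binding subunit, was the highest per kilobase, at 223 ± 73.5 CPM (SD, n = 6). UQCRH averaged 43.9 ± 12.1 CPM in the primary group and 38.7 ± 3.91 CPM in the recurrent group (SD, n = 3 each). Its copy UQCRHL measured 3.11, 3.46 and 2.80 CPM in primary and 4.03, 3.84 and 4.01 CPM in recurrent tumours. It was the one subunit gene with all recurrent tumours above all primary tumours, with a log2 fold change of 0.35 (SE 0.28, edgeR adjusted p = 0.700). As the 2 coding sequences above differ at 4 bases, how reads of this pair were divided is uncertain.

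Complex IV had the lowest median of the 5 complexes, -0.36, and -0.11 without primary replicate 2. All 12 tested genes were below 0 (50.9% of all genes) and 3 reached an unadjusted p under 0.05 (4.2% of all genes lower). COX7B, whose sequence is shown above, measured 151.5, 250.6 and 161.0 CPM in primary and 146.6, 124.6 and 117.0 CPM in recurrent tumours. Every recurrent tumour lay below every primary tumour, by a small margin between the nearest pair. It had the lowest log2 fold change and the smallest p of all 81 subunits, -0.54 (SE 0.19, edgeR adjusted p = 0.483), and -0.28 without primary replicate 2. COX7A2, the general form of subunit COX7A, measured 44.4, 70.7 and 44.1 CPM in primary and 41.1, 36.5 and 37.3 CPM in recurrent tumours. These groups did not overlap either, and the change was -0.47 (SE 0.19, edgeR adjusted p = 0.519), or -0.21 without primary replicate 2. COX6B1, on the side that meets cytochrome c, was the third, with 61.7 ± 10.3 and 48.9 ± 3.52 CPM (SD, n = 3 each) and a change of -0.34 (SE 0.15, edgeR adjusted p = 0.535), or -0.20 without that library.

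COX4I1, the regulatory subunit that binds ATP, measured 226.3, 420.5 and 240.9 CPM in primary and 232.0, 216.4 and 233.4 CPM in recurrent tumours. The other 5 tumours lay within a narrow band below primary replicate 2, and the change of -0.38 (SE 0.22, edgeR adjusted p = 0.600) was -0.04 without it. COX4I1 was also the most abundant complex IV subunit per kilobase, at 329 ± 98.6 CPM (SD, n = 6), and COX8A, the smallest subunit, was the least abundant of the general forms at 36.3 ± 7.56. COX5A and COX5B averaged 59.4 ± 8.46 and 57.0 ± 16.3 CPM in the primary group and 50.1 ± 8.30 and 48.2 ± 3.99 CPM in the recurrent group (SD, n = 3 each). COX6A1 averaged 90.2 ± 28.4 and 70.1 ± 8.33 CPM, and COX8A 19.7 ± 5.54 and 17.1 ± 1.13 CPM (SD, n = 3 each). NDUFA4, first assigned to complex I, averaged 102 ± 31.5 and 77.9 ± 14.0 CPM, and COX7A2L, which helps to join complexes III and IV, 63.4 ± 23.4 and 47.5 ± 8.0 CPM (SD, n = 3 each). In each of these the groups overlapped.

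ATP synthase has an F1 head that makes ATP, a rotor ring of c subunits in the membrane and a peripheral stalk that holds the head still. Its 18 tested genes had a median log2 fold change of -0.18, with 15 below 0 (50.9% of all genes), and -0.05 without primary replicate 2. The 4 stalk subunits had a median of -0.36 and the 5 head subunits -0.19, and without that library -0.12 and -0.05. ATP5PO, the stalk subunit that ties the head to the stalk, measured 71.7, 124.0 and 88.3 CPM in primary and 74.6, 66.7 and 62.4 CPM in recurrent tumours. Primary replicate 2 was again the highest and the groups overlapped. The change was -0.48 (SE 0.19, edgeR adjusted p = 0.513), the lowest of the complex, and -0.24 without that library. ATP5F1A and ATP5F1B, the alpha and beta subunits of the head, averaged 163 ± 23.5 and 288 ± 54.1 CPM in the primary group and 145 ± 12.9 and 250.7 ± 16.8 CPM in the recurrent group (SD, n = 3 each). ATP5F1C, the gamma shaft, averaged 55.3 ± 15.6 and 43.4 ± 5.94 CPM.

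The 3 c-ring genes, which encode one product, differed in transcript level. ATP5MC1 measured 17, 17.8 and 16.1 CPM in primary and 18.8, 14.5 and 18.8 CPM in recurrent tumours. It was one of the few subunits in which primary replicate 2 did not stand apart, and its change was 0.03 (SE 0.18, edgeR adjusted p = 0.961). ATP5MC2 averaged 58.2 ± 5.70 and 52.7 ± 6.87 CPM, and ATP5MC3 45.7 ± 9.54 and 40.9 ± 2.26 CPM (SD, n = 3 each). Per kilobase of transcript the order over the 6 tumours was ATP5MC2 (68.4 ± 7.89 CPM), ATP5MC3 (51.4 ± 8.0) and ATP5MC1 (31.8 ± 3.08), each mean apart from the next by more than either SD (n = 6). ATP5IF1, which inhibits the enzyme when it would run backwards, was the most abundant gene of the complex per kilobase, at 259 ± 45.4 CPM (SD, n = 6). It averaged 160 ± 31.8 CPM in the primary group and 134 ± 12.3 CPM in the recurrent group (SD, n = 3 each), with a change of -0.25 (SE 0.16, edgeR adjusted p = 0.628), or -0.08 without primary replicate 2.

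**Figure D3:**
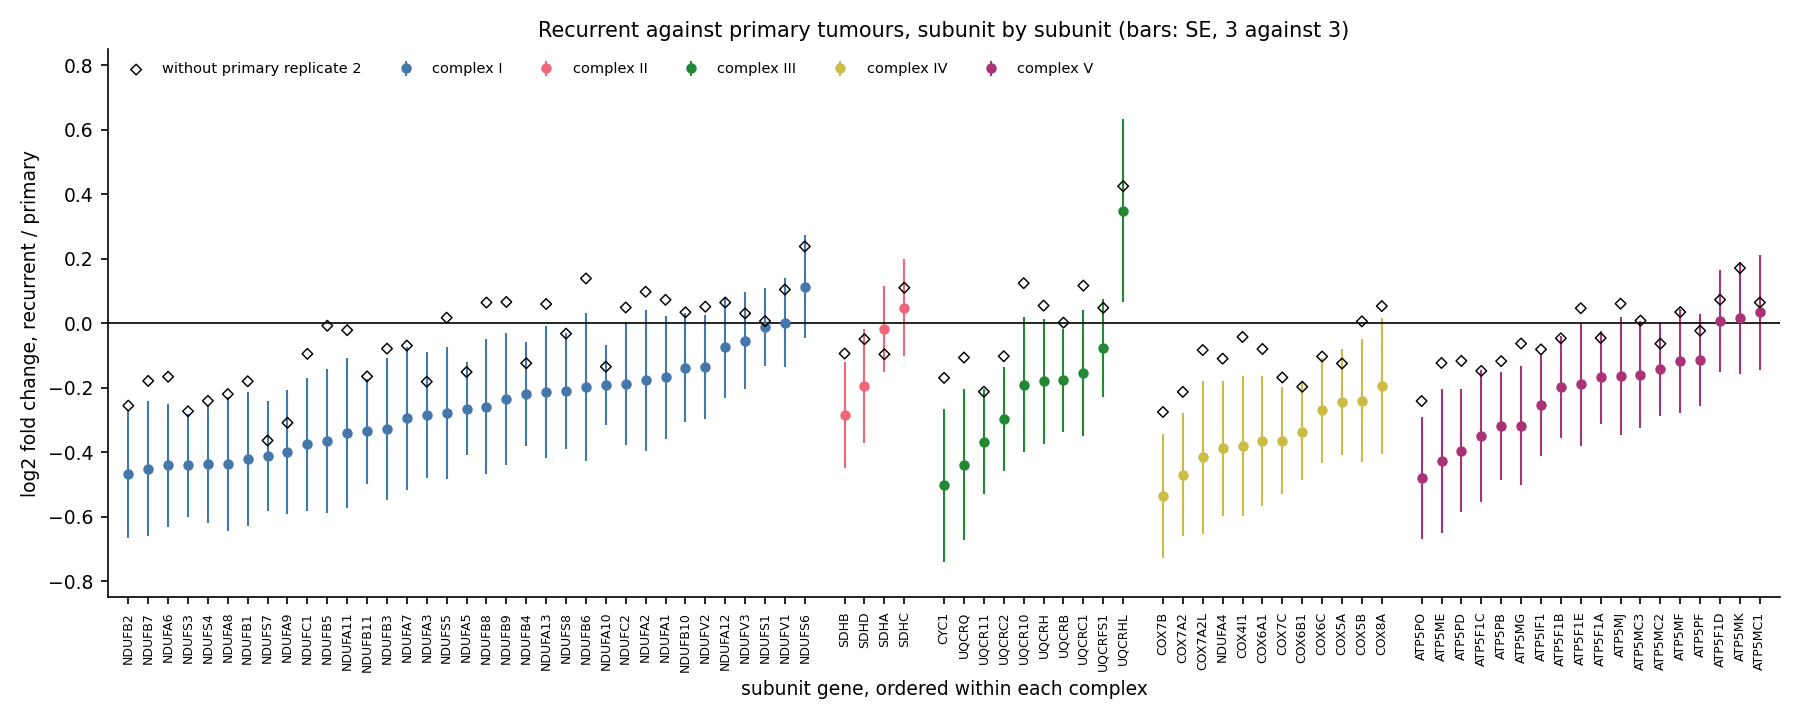
Log2 fold change of recurrent against primary tumours for 79 of the 80 tested subunit genes of complexes I to V, ordered within each complex. Filled points with bars are the edgeR estimate and its SE (3 against 3 tumours), and open diamonds the estimate without primary replicate 2, which lies closer to 0 for most genes.

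Other genes of the pathway were read from the same fit. Of 57 genes listed as assembly factors, which build the complexes and insert their cofactors, 44 were below 0 (50.9% of all genes) and 13 above. Their median log2 fold change was -0.20, and -0.03 without primary replicate 2. The list holds NDUFAB1, which is itself a complex I subunit with a name that the rule did not match. None of the 57 passed edgeR's adjusted p under 0.05, and 2 reached an unadjusted p under 0.05, both lower (4.2% of all genes). These were COA5 at -0.49 (SE 0.19, adjusted p = 0.513) and COA6 at -0.44 (SE 0.20, adjusted p = 0.536), both needed for complex IV. DESeq2 called none and also had 2 at an unadjusted p under 0.05, both lower (4.36% of all genes). The smallest p in the other direction was that of COA7, also a complex IV factor, at 0.32 (SE 0.15, adjusted p = 0.543), followed by DMAC2L at 0.22 (SE 0.26). For COA7 all 3 recurrent tumours lay above the primary tumours, as in 7.94% of all genes. Of 24 regulators of mitochondrial biogenesis and related genes, 13 were below 0 (50.9% of all genes) and 11 above, with a median of -0.02. None of the 24 was called by edgeR or DESeq2. Each tool had 1 at an unadjusted p under 0.05, in the lower direction (4.2% of all genes in edgeR and 4.36% in DESeq2).

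NDUFA4L2, a hypoxia-induced relative of NDUFA4, was the one regulator with an unadjusted p under 0.05. It measured 2.23, 5.82 and 2.31 CPM in primary and 0.0504, 0.914 and 2.16 CPM in recurrent tumours, all of them low levels. The groups did not overlap, though recurrent replicate 3 lay close to the lower primary tumours. The log2 fold change was -1.63 (SE 0.67, edgeR adjusted p = 0.520), or -1.05 without primary replicate 2. CYCS, cytochrome c itself, averaged 292 ± 79.4 CPM in the primary group and 231 ± 14.4 CPM in the recurrent group (SD, n = 3 each). Its change was -0.34 (SE 0.18, edgeR adjusted p = 0.589), or -0.10 without primary replicate 2. HCFC1, a transcriptional cofactor, measured 166.5, 94.7 and 186.7 CPM in primary and 196.9, 201.8 and 192.3 CPM in recurrent tumours. Primary replicate 2 was here the lowest library, and the change was 0.40 (SE 0.21, edgeR adjusted p = 0.589), or 0.16 without it. GABPB2, a subunit of the nuclear respiratory factor GABP, had a change of 0.48 (SE 0.28, edgeR adjusted p = 0.611).

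The 13 protein genes of mitochondrial DNA lay on the other side of 0 from the nuclear subunits. All 13 had a log2 fold change above 0 (50.9% of all genes were below 0), with a median of 0.22, and 0.43 without primary replicate 2. None passed edgeR's adjusted p under 0.05, and 1, MT-ATP8, reached an unadjusted p under 0.05 (5.08% of all genes higher). MT-ATP8, a membrane subunit of ATP synthase, measured 77.5, 59.7 and 47.4 CPM in the primary and 102, 93.8 and 109 CPM in the recurrent tumours. The groups did not overlap, as in 7.94% of all genes in this direction. Its change was 0.73 (SE 0.18, edgeR adjusted p = 0.323), and DESeq2 called it (adjusted p = 0.0349), the one gene of the 13 that it called (0.735% of all genes). MT-ATP8 overlaps MT-ATP6 on the mitochondrial genome, so its counts depend on how shared reads were divided. The ratio of the summed CPM of the 13 genes to that of the nuclear subunits was 1.91, 1.56 and 1.41 in primary replicates 1, 2 and 3 and 1.87, 2.3 and 2.63 in recurrent replicates 1, 2 and 3. The groups overlapped by recurrent replicate 1, and no test was made of this ratio.

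**Figure D4:**
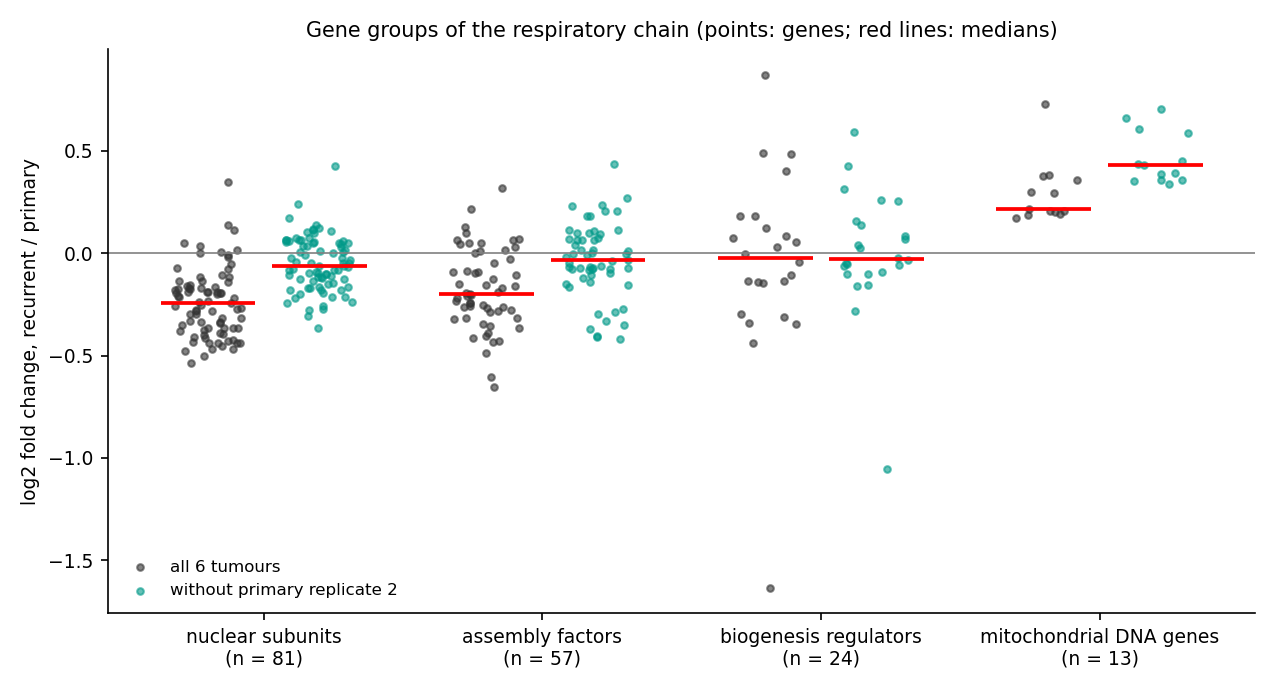
Log2 fold change of recurrent against primary tumours for the 81 nuclear subunits, 57 assembly factors, 24 biogenesis regulators and 13 mitochondrial DNA protein genes. Points are genes and red lines medians, in dark grey for all 6 tumours and in green without primary replicate 2. The medians with all 6 tumours were -0.24, -0.20, -0.02 and 0.22.

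The culture was set beside the tumours as an outside reference, with CPM of the library total and no test, since it is 1 library. None of the 81 subunits lay both outside the range of the 6 tumours and at least 2-fold from their mean, against 8.69% of 14110 genes higher and 5.28% lower in the culture. The summed level of all subunits in the culture was 5780 CPM, against 5607 ± 851 CPM in the tumours (SD, n = 6), a ratio of 1.03. By complex, the ratios were 0.985 for complex I, 1.18 for complex II, 1.06 for complex III, 1.11 for complex IV and 0.990 for complex V. Single subunits ranged from 0.650 to 1.89. Outside the range of the tumours were 11 subunits above (32.9% of all genes) and 15 below (21.4% of all genes). The number above depended on primary replicate 2. Without that library 37 of the 81 subunits lay above the range (5008 of 14137 genes) and 15 below (3813 genes). The median ratio of the subunits was then 1.08, against 1.01 with all 6 tumours.

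At 1.5-fold and outside the range, 4 subunits were higher in the culture (18.3% of all genes) and 2 were lower (11.3%). SDHA reached 124.6 CPM in the culture, against 79.3 ± 8.77 CPM (SD, n = 6) and at most 93.8 CPM in the tumours, a ratio of 1.57. The other complex II genes were within the tumour range, at ratios of 0.949 to 1.09. COX5B, a zinc-binding subunit of complex IV, reached 89.5 CPM against 52.3 ± 9.49 CPM and at most 70.3 CPM, a ratio of 1.71. UQCRH reached 75.7 CPM against 41.1 ± 6.78 CPM, a ratio of 1.84, and its copy UQCRHL 6.68 CPM against 3.54 ± 0.496 CPM, a ratio of 1.89. The pair differed from the tumours by nearly the same ratio. As their coding sequences are near-identical, these may not be 2 independent values, and the sharing of reads was not measured. Lower in the culture were NDUFB2, at 29.8 CPM against 45.1 ± 10.6 CPM (0.660), and NDUFB3, at 14.0 CPM against 21.5 ± 4.64 CPM (0.650), both of the membrane arm of complex I.

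At the ends of the other complexes were NDUFB1 (1.30) for complex I, UQCRQ (0.723) for complex III, NDUFA4 (0.781) for complex IV, and ATP5F1B (1.18) and ATP5PB (0.767) for complex V. The mitochondrial DNA genes stood apart from the nuclear ones, with a ratio of mitochondrial to nuclear subunit counts of 4.03 in the culture against 1.41 to 2.63 in the tumours. PPARGC1A, a coactivator that drives mitochondrial biogenesis in many tissues, measured 83.8 CPM in the culture against 9.50 ± 2.50 CPM (SD, n = 6) and at most 12.6 CPM in the tumours, a ratio of 8.82. It belongs to the list of biogenesis regulators and was named after its value was seen. No nuclear subunit that passed the filter had a ratio of that size.

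**Figure D5:**
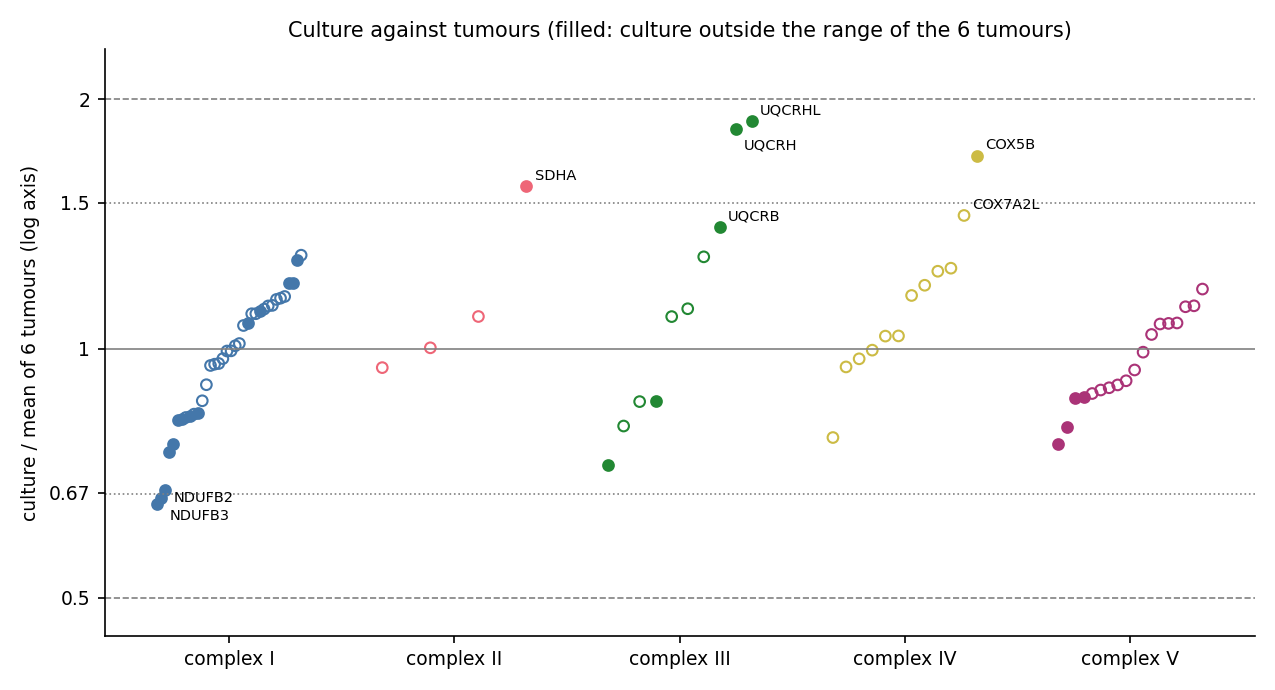
Ratio of the culture (1 library) to the mean of the 6 tumours in CPM of the library total, on a log axis, for 80 subunit genes by complex. Filled points mark genes whose culture level lay outside the range of the 6 tumours, dotted lines 1.5-fold and dashed lines 2-fold, which no gene reached.

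The controls were used to see how much of these counts could arise in brain without a tumour. The subunits took 148, 745 and 13359 counts in control replicates 1, 2 and 3, or 0.0109%, 0.0438% and 0.321% of the library total, and 49, 75 and 82 of the 90 genes had a count. Control replicate 3, the control with the highest level of glioma markers, held nearly all of these counts. Structural small RNA made up 82.4%, 78.8% and 26.5% of the control totals. With it left out, the subunit shares were 0.0618%, 0.207% and 0.437%, against 0.543% to 0.841% in tumours. The RNA integrity number of control replicate 2 was 6.1. Against the 3 controls, none of the 81 subunits passed edgeR's adjusted p under 0.05 in the tumours (6.53% of 16389 genes did), and 13 reached an unadjusted p under 0.05, all higher in tumours (9.99% of all genes). DESeq2 called none (8.16% of all genes) and gave 11 at an unadjusted p under 0.05, all higher (5.01% of all genes). The median log2 fold change of the subunits was 0.75 in the edgeR fit, against 0.41 for all genes. The smallest p was that of NDUFA4, with 2, 3 and 177 counts in the controls and a log2 fold change of 1.35 (SE 0.42, edgeR adjusted p = 0.0863).

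Without control replicate 3, 14 subunits were called higher in tumours (11.1% of all genes), among them ATP5F1B, ATP5PB, ATP5IF1, COX7B, COX5B, UQCRC2 and NDUFA4. In that fit all genes had a median log2 fold change of 1.18 and the subunits a lower one, 0.88, with 12 subunits below 0 and 2 at an unadjusted p under 0.05 in the lower direction (9.7% of all genes). Without control replicate 1, 1 was called, ATP5F1D, which was higher in tumours (3.74% of all genes were called, 0.964% higher), and the medians were 0.24 for all genes and 0.55 for the subunits. With all controls and library totals as the scale, the medians were 1.77 and 2.19, and none was called. With small RNA genes left out, the medians were 0.35 for all genes and 0.70 for the subunits, and none was called. Taking the median over the controls of a gene's count per host read, where host reads are the total times the ratio of host to graft percentage, the counts seen in the controls would give a median of 0.0627% of a subunit's counts in a tumour and at most 0.366% (NDUFV3). With control replicate 3 alone as the source these values were 4.21% and 11.7% (NDUFS1), and they then include the human reads of that library.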

How the data were processed

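The values are estimated counts by gene from Salmon, deposited as 1 table, fractional in part and unscaled. Per the labels' protocols, RNA came from frozen dissected tissue, libraries were ribosomal-RNA-depleted and strand-specific, and reads were paired. STAR, Salmon 1.10.3, DESeq2 and GRCh38 are named, per the submitters' processing notes. Not given in the sources used here were the annotation release, the division of multi-mapping reads and the read classes counted. Library totals and the counting limits they set are given with the samples above.

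Estimated counts were rounded and fitted over all genes with edgeR 4.0.16 in R 4.3.3 (TMM, default low-count filter, two-sided quasi-likelihood F test without covariates, Benjamini-Hochberg adjustment over all tested genes, threshold 0.05). The SE is the size of the log2 fold change divided by the square root of F. DESeq2 1.42.0, other scalings, no filter, covariates, left-out libraries and a per-library length correction were alternatives, and edgeR's legacy form was added after seeing the data. The script was checked on simulated counts. The culture, 1 library, was compared by fold and range only, over genes with a mean of at least 1 CPM. Gene models, 1-based coordinates and lengths (the median over basic coding transcripts) come from GENCODE 29, which matched 58261 gene IDs and 89 of the 90 subunit genes. Sequences were read from its transcripts. Groups came from the treatment labels, and replicates were numbered in record order. Of the subunit rows left out by name, 190 pseudogenes held 0.203% to 0.407% as many counts as the subunits in tumours.

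The subunits and gene lists were chosen with earlier results of these data known. Named genes were catalytic subunits, paralog sets, and in each complex those with the highest and lowest fold change, smallest p, highest level per length and highest and lowest culture ratio. In the other lists they were those with the smallest p each way. The values of 1 gene that the rule would name are not reported here.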

Additional observations from a re-analysis of the deposited data

How the results depend on the processing

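The absence of adjusted calls among subunits, assembly factors and biogenesis regulators in recurrent against primary tumours held under every alternative run, at 0 calls each, while the number of subunits at an unadjusted p under 0.05 in the lower direction ran from 2 to 25. The median log2 fold change of the subunits stayed below 0 throughout. It was -0.41 with the graft percentage as a covariate, -0.23 with the RNA integrity number, and -0.34 to -0.06 when 1 tumour was left out. Without primary replicate 2 the complex I median was -0.03, and with the length trend removed it was -0.04 for complex I and 0.01 for complex II. The complex III median was -0.44 with the graft covariate. For tumours against controls the number of subunits called was 0 to 14 when 1 control was left out. For the culture it was 6 at 1.5-fold and 1 (COX6B2) without the filter. Some subunits changed sign without being called, and the cause was not tested. Not all of these were near 0 with all 6 tumours. NDUFS5 was at -0.28 and COX5B at -0.24 there, and at 0.0172 and 0.0057 without primary replicate 2. Among the genes named by rule, those that moved from below to above 0 with the length trend removed were ATP5MC2 0.0383, ATP5MC3 0.0355, COX8A 0.0722, NDUFS1 0.0121, NDUFS8 0.0250, NDUFV2 0.0507, SDHA 0.0322 and UQCRH 0.0627. With the graft covariate, ATP5MC1 was -0.1452, NDUFV1 -0.1360, NDUFS1 0.0703 and SDHA 0.1582. When 1 tumour was left out the ranges were ATP5MC1 -0.0413 to 0.1367, ATP5MC3 -0.2894 to 0.0081, COX5B -0.4031 to 0.0057, COX8A -0.3222 to 0.0531, NDUFS1 -0.0606 to 0.0120, NDUFS5 -0.4113 to 0.0172 and NDUFV1 -0.0674 to 0.1045. They were NDUFV2 -0.2526 to 0.0513, SDHA -0.0962 to 0.0927, SDHC -0.0068 to 0.1100, UQCRC1 -0.3230 to 0.1167, UQCRFS1 -0.1619 to 0.0477 and UQCRH -0.3409 to 0.0546. NDUFS1 was 0.0050 with library totals, and NDUFV1 -0.0133 with protein-coding totals and -0.0045 without the filter. No paired analysis was possible because replicate numbers came from record order. Depth limits the controls most, where 3 counts are 0.721 to 2.21 CPM.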
